A study of Homo sapiens with 6 samples.

Results

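Methylation was examined at 4 gene loci of HepG2 cells, an established human liver cancer line: ASGR2, ONECUT1 and FADS2, which serve hepatocyte or lipid functions, and EPCAM, an epithelial adhesion gene. Members were the rows of the 3 deposited lists of differentially methylated regions that overlapped windows around these genes on hg38 (chr17:7100000-7117000, chr15:52755000-52792000, chr2:47344000-47389000 and chr11:61791000-61868500), in both directions. There were 13 such regions out of 4344 listed in all, which merged into 10 distinct regions out of 3313 when regions sharing at least 1 bp were joined. The loci were chosen by the listed levels themselves, as genes with measured gains, so their counts and levels are given as a description and no test was made on them. The name under which the loci were grouped, hepatocyte and lipid genes with gains, fits the rows in part only, because 2 of the 5 ONECUT1 regions were listed as lower and EPCAM belongs to neither class of genes.

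Reduced representation bisulfite sequencing (RRBS) was applied to 6 libraries of HepG2 cells in 2 groups of 3. One group carried a control lentivirus and is labelled WT for genotype, and the other carried a lentivirus that overexpresses DNMT3A. Each deposited list compares 1 overexpressing library with its equally numbered control, and these comparisons are called pairs 1, 2 and 3 here. The promoter that drives the transgene, any selection of infected cells and the culture from which each library was made were not given in the sources used here, so an SD between pairs may be technical.

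DNMT3A is a de novo DNA methyltransferase, which adds methyl groups to cytosines of CpG dinucleotides that lack them. Promoters rich in CpG dinucleotides are usually kept unmethylated in normal cells, and methylation there is known to accompany silencing, whereas methylation inside transcribed gene bodies is common. Of the 4 genes, ASGR2 encodes the minor subunit of the asialoglycoprotein receptor, which clears glycoproteins that have lost terminal sialic acid from the blood and is a classical surface protein of hepatocytes. ONECUT1 (also called HNF6) is a homeodomain transcription factor of liver, bile duct and pancreas development. EPCAM is a cell adhesion glycoprotein of epithelia that is low in mature hepatocytes and present on liver progenitors, bile duct cells and many carcinomas. FADS2 is the delta-6 desaturase that carries out the first desaturation step from dietary polyunsaturated fatty acids to their long-chain products.

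RRBS reads begin at the cuts of MspI, whose site is CCGG, so this site decides which stretches of a promoter the assay can reach. The 250 bases upstream of the annotated start, from the RefSeq promoter table of GRCh38.p14 (the build hg38), are shown for the 2 of the 4 genes that matched it, on the gene's own strand and with CCGG in capitals. The ONECUT1 window is chr15:52790337-52790586 (minus strand) and the FADS2 window chr11:61815953-61816202 (plus strand); a second FADS2 window of the table, chr11:61816154-61816403, held no CCGG.
ONECUT1: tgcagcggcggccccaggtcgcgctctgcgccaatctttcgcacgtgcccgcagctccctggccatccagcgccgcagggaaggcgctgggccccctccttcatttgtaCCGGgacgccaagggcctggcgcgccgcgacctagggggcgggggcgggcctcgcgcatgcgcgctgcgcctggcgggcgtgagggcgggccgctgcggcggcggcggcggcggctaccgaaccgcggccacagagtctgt
FADS2: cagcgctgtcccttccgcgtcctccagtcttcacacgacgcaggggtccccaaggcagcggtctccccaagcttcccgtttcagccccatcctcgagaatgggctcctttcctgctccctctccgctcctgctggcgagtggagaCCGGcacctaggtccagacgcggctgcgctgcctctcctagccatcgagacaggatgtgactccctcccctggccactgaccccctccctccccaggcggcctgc
CCGG, which reads the same on both strands, occurred once in each of the 2 windows shown. Of all 35116 windows of this length in the table, 58.5% held at least 1 and 40.5% at least 2. The ONECUT1 window held 37 CpG dinucleotides and the first FADS2 window 16, against a median of 11 over all windows. No region was listed in any of these windows. The nearest member region lay 478 bp from the ONECUT1 window and 11611 bp from the first FADS2 window.

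Methylation was higher in the overexpressing library at 11 of the 13 regions and lower at 2. Pair 1 listed 4 regions, all higher, pair 2 listed 6, of which 4 were higher, and pair 3 listed 3, all higher. Over the 3 whole lists the share of higher regions was 81.6% (82.1%, 81.7% and 81.1% in pairs 1, 2 and 3), so 11 of 13 is close to the background. Both lower regions came from pair 2 and lay in ONECUT1, so without pair 2 no lower region was left. None of the 10 distinct regions was listed in all 3 pairs, which 8.21% of all distinct regions were. The 3 distinct regions listed in 2 pairs, 2 at ASGR2 and 1 at FADS2, were higher in both, and 19.0% of all distinct regions were listed as higher in at least 2 pairs. A locus without a row in a list shows only that no region was called there, since levels outside called regions are not in the lists.

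**Figure D1:**
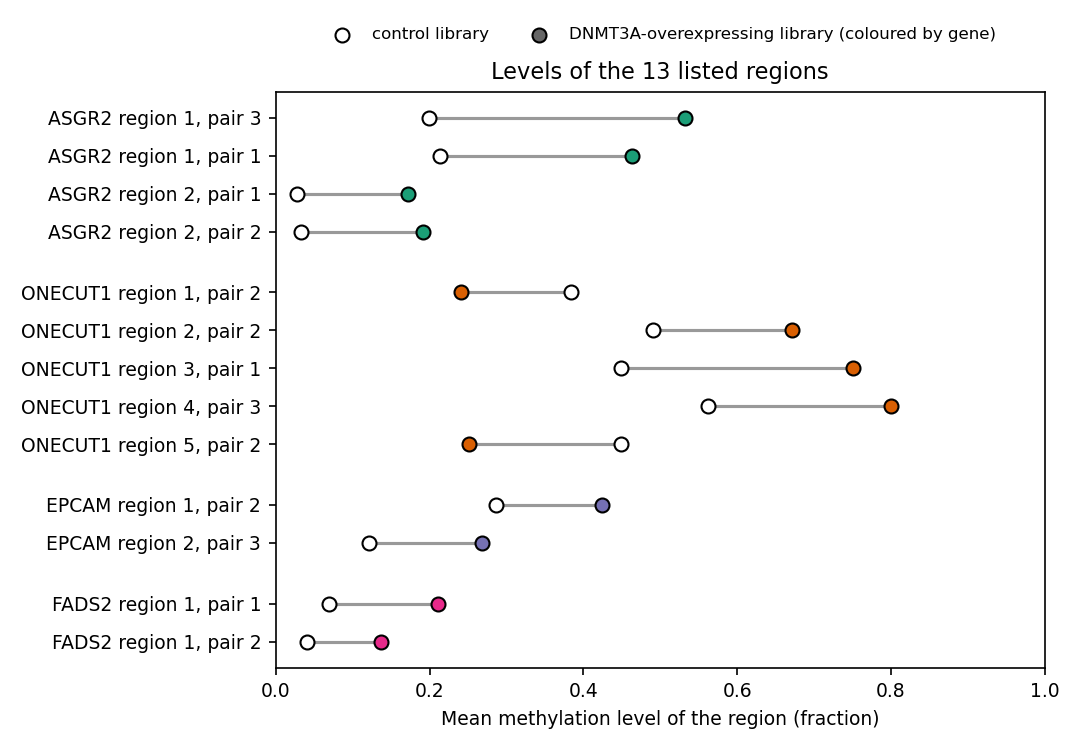
Mean methylation level (fraction, x axis) of each of the 13 listed regions in the control library (open circle) and the overexpressing library (filled circle) of the pair that listed it; regions are numbered along the chromosome within each gene. Levels are higher with overexpression in 11 rows, and lower in the 2 ONECUT1 rows of pair 2 that end at 0.241 and 0.251.

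The higher regions of these loci were small in difference for listed gains. Their differences ranged from 0.0958 to 0.334 with a median of 0.159, whereas the medians over all gains of pairs 1, 2 and 3 were 0.264, 0.266 and 0.265. In 9 of the 11 the difference was below the median of the gains of its own list. Control levels ran from 0.0271 to 0.562 (median 0.199) and overexpressing levels from 0.136 to 0.800 (median 0.424). The loci fell into different parts of that range, with FADS2 and the outer ASGR2 region nearly unmethylated in the controls, EPCAM and the inner ASGR2 region at low levels, and ONECUT1 at intermediate levels. Expressed as a net share of the unmethylated part of the control level, the gains amounted to 9.98% to 54.8%, against list medians of 36.8%, 37.6% and 37.9%.

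**Figure D2:**
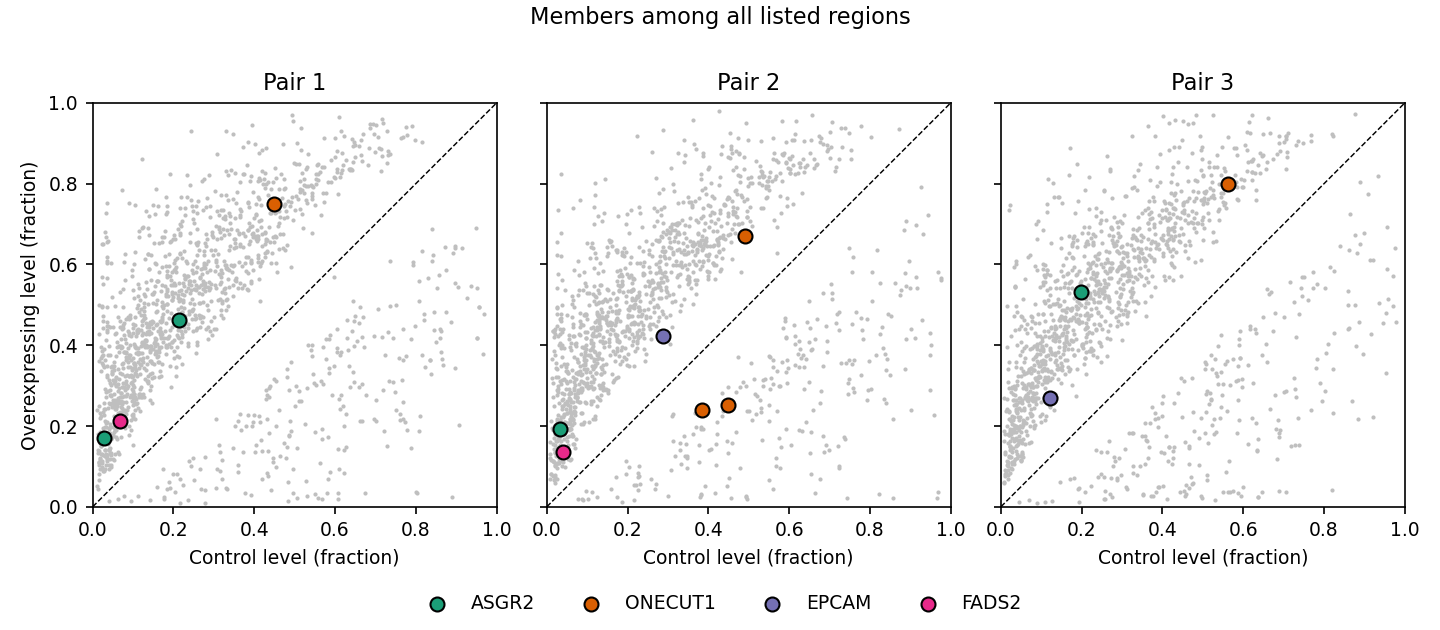
Overexpressing level against control level (fractions) for every listed region of each pair (grey points), with the regions of the 4 genes in colour; the dashed line marks equal levels. EPCAM lies at the lower edge of the gains of pairs 2 and 3, ONECUT1 among the gains with the highest control levels and, in pair 2, also below the line, and FADS2 and the outer ASGR2 region near the origin.

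ASGR2 carried 4 listed regions, which formed 2 distinct regions, each found as higher in 2 pairs. ASGR2 (GeneID 433) spans chr17:7101322-7115146 in the RefSeq gene table, and as background its transcription runs from the higher toward the lower coordinate. The inner region, chr17:7112346-7112693, lies inside the gene, 2453 bp or more from its 5′ end. Its level was 0.213 in control library 1 and 0.464 in overexpressing library 1 (chr17:7112525-7112693, 12 CpG sites), and 0.199 in control library 3 and 0.533 in overexpressing library 3 (chr17:7112346-7112624, 20 sites). The mean difference was 0.292 ± 0.0591 (SD, n = 2 pairs), and pair 2, which called no region here, has no listed level. The 2 calls share 100 bp, which is 59.2% of the shorter one, so the 2 pairs did not average over the same sites.

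The outer ASGR2 region, chr17:7115580-7115714, lies outside the annotated gene, 434 bp beyond its 5′ end. Its level was 0.0271 in control library 1 and 0.171 in overexpressing library 1 (13 sites), and 0.0327 in control library 2 and 0.192 in overexpressing library 2 (chr17:7115580-7115657, 12 sites). The 2 controls were nearly unmethylated and the 2 overexpressing libraries stood close to each other, with a mean difference of 0.152 ± 0.0107 (SD, n = 2 pairs). The extra 57 bp of the call in pair 1 added only 1 site, so both calls rest on almost the same number of sites.

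The 2 ASGR2 regions lay 2886 bp apart at the closest and differed in level and size of difference. Among the 364 distinct regions that were higher in exactly 2 pairs, the median of the mean difference was 0.264. The inner region exceeded 61.5% of them and the outer region 11.5%. Agreement between the 2 pairs followed the opposite order, since the pairs' differences were 0.0152 apart at the outer region and 0.0835 apart at the inner one, against a median gap of 0.0392 over the 364. The outer region's low control level limits the comparison, because gains that start near 0 are smaller in these lists. Among the gains of pair 1 whose control level was within 0.05 of it, the median difference was 0.208, and 77 of 265 had a smaller difference than its 0.144. In pair 2 the median was 0.197, and 102 of 289 were smaller than 0.159.

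FADS2 carried 1 distinct region, higher in 2 pairs and the smallest gain of the 4 loci. FADS2 (GeneID 9415) spans chr11:61816203-61867354, and the region at chr11:61827813-61827964 lies inside it, 11610 bp from the annotated start. The gene table gives 1 extent for all transcripts, so the position relative to starts of shorter transcripts was not analysed here. In pair 1 the level went from 0.0688 (control) to 0.211 (overexpressing) over 152 bp with 34 sites. In pair 2 the call was the last 79 bp of that stretch, with 19 sites, and the levels were 0.0405 and 0.136. The mean difference was 0.119 ± 0.0330 (SD, n = 2 pairs), larger than 6.04% of the 364 gains listed in exactly 2 pairs.

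The FADS2 region was dense in CpG sites. It held 22.4 sites per 100 bp in pair 1 and 24.1 in pair 2, more than 92.6% and 94.4% of the gains of these lists, whose medians were 10.8 and 10.7. The lists count a CpG on both strands, as the 117 listed regions that lie wholly inside a promoter window showed a median of 2 sites per CpG dinucleotide of the reference. By number of sites the call in pair 1 ranked 67 of 1217 gains, while by size of difference it ranked 1108. Among gains with a control level within 0.05, 75 of 390 in pair 1 and 34 of 312 in pair 2 had a smaller difference. Multiplying sites by level, the region went from the equivalent of 2.34 methylated sites of 34 to 7.18 in pair 1, and from 0.770 of 19 to 2.59 in pair 2.

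ONECUT1 carried 5 regions in 5 separate places, 3 higher and 2 lower, and no place was listed by more than 1 pair. ONECUT1 (GeneID 3175) spans chr15:52755053-52790336 on the minus strand, and all 5 regions lie inside it, within the 5 kb that follow its start. Pairs 1 and 3 each listed 1 region, both higher and 116 bp apart. At chr15:52788674-52788773 (9 sites) the level was 0.449 in control library 1 and 0.751 in overexpressing library 1, a difference of 0.302. At chr15:52788890-52788992 (18 sites) it was 0.562 in control library 3 and 0.800 in overexpressing library 3, a difference of 0.238.

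These 2 ONECUT1 regions started higher than most gains. The control level of the region in pair 1 was above that of 87.0% of the gains of its list, and in pair 3 above 94.6%. The share of the unmethylated part that became methylated on balance was 54.8% in pair 1 and 54.4% in pair 3, the largest of the 11 higher regions and above 80.3% and 81.0% of the gains of these lists. For their control levels, however, the differences were ordinary in size. Among gains with a control level within 0.05, 71 of 105 in pair 1 and 27 of 54 in pair 3 had a smaller difference. The median differences of these gains were 0.270 and 0.239. Because the 2 calls do not overlap, they are neighbours in different pairs and not a repeat of 1 measurement.

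Pair 2 listed 3 regions in ONECUT1, in 2 directions. At chr15:52789668-52789859, 477 bp inside the gene from its start, the level was 0.449 in control library 2 and 0.251 in overexpressing library 2. This is a difference of -0.198 over 51 sites in 192 bp, and by number of sites it ranked 7 of the 262 losses of the list. It lies within 1 kb of the noncoding gene LOC105370824 as well. Farther inside the gene, chr15:52785448-52785507 (11 sites) had a level of 0.384 in control library 2 and 0.241 in overexpressing library 2, a difference of -0.144. The region at chr15:52785866-52785924 (4 sites), 358 bp away, went the other way, with levels of 0.491 and 0.672 and a difference of 0.181.

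Directions thus differed between close neighbours of ONECUT1, both within pair 2 and between pairs. The lower region of 51 sites lies 675 bp from the higher region of pair 3 and 894 bp from that of pair 1. Within 1 list, opposite directions were uncommon: of the neighbouring regions that lay within 1 kb of each other, 7 of 70 in pair 1, 6 of 56 in pair 2 (the ONECUT1 neighbours 358 bp apart among them) and 7 of 73 in pair 3 had opposite directions. Such neighbours in different lists were not counted. Of the 20056 protein-coding genes of the reference table, 0.274% had a higher and a lower region in the same list within 1 kb, and 0.439% had at least 5 listed regions, as ONECUT1 did. Most of these genes had no listed region at all, whereas ONECUT1 was chosen for having some. Among the 1773 genes with a listed region within 1 kb, 55 had both directions in 1 list and 88 had at least 5 regions. The 2 ONECUT1 losses were small for losses: they lost 37.4% and 44.1% of the control level, against a median of 52.5% over the losses of pair 2. With 4 sites, the smallest number in the lists, the higher region of pair 2 rests on few sites, the more so because the lists count a CpG on both strands.

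**Figure D3:**
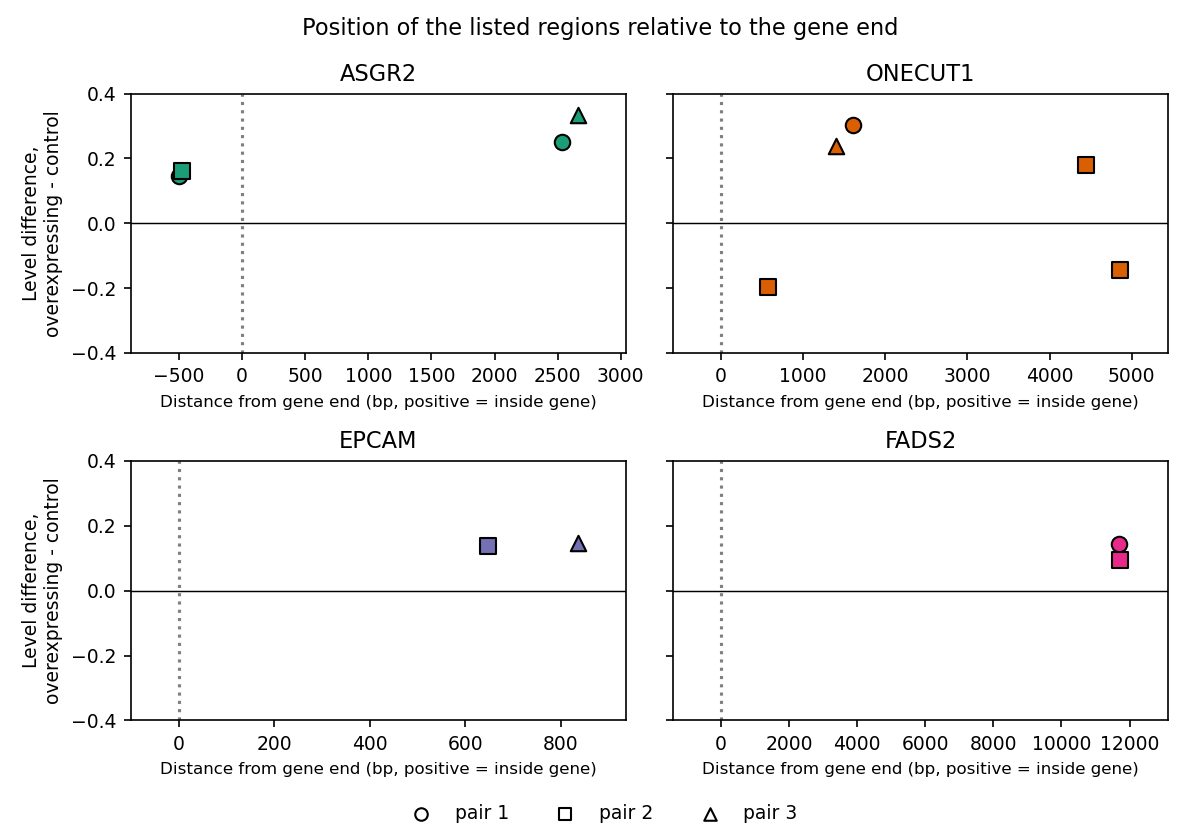
Level difference (overexpressing minus control, y axis) of each listed region against the distance of its midpoint from the 5′ end of the gene (bp, x axis; positive values lie inside the gene, and the dotted line marks the end); circles, squares and triangles are pairs 1, 2 and 3, and the x scale differs between panels. ASGR2 has 2 positions that are each hit by 2 pairs, FADS2 has 1, EPCAM has 2 neighbouring positions in different pairs, and ONECUT1 has values on both sides of 0.

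EPCAM carried 2 regions close to its start, both higher and each listed by 1 pair. EPCAM (GeneID 4072) spans chr2:47369311-47387020, and as background it is transcribed toward the higher coordinate. At chr2:47369899-47370016 (24 sites), 588 bp inside the gene, the level was 0.287 in control library 2 and 0.424 in overexpressing library 2. At chr2:47370116-47370178 (4 sites), 99 bp farther in, it was 0.121 in control library 3 and 0.269 in overexpressing library 3. The differences of 0.137 and 0.148 were alike in size although the control levels were not, and each comes from 1 pair, without a repeat. The region of pair 3 rests on 4 sites, the smallest number in the lists.

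For their control levels the EPCAM gains were among the smallest listed. Of the gains of pair 2 with a control level within 0.05 of the EPCAM region, 4 of 170 had a smaller difference, and in pair 3 it was 17 of 281. The median differences of these gains were 0.305 and 0.277. This was not particular to EPCAM. At the ONECUT1 gain of pair 2, 2 of 76 such gains were smaller than its 0.181, and their median was 0.291. The 2 EPCAM regions also differed in makeup, with 20.3 sites per 100 bp in pair 2 and 6.35 in pair 3. That density exceeded 89.8% of the gains of pair 2 in the first case and 10.4% of those of pair 3 in the second.

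Neighbouring genes were then examined for listed regions within 1 kb. None was listed at ASGR1, which encodes the major subunit of the same receptor, at FADS1 and FADS3, the desaturase genes beside FADS2, at MYRF or FEN1 on the other side of FADS1, or at EPCAM-DT. The closest listed region beyond the ASGR2 window was chr17:7135255-7135355, in the noncoding gene LOC105371512 and 18255 bp beyond the window, with 0.143 in control library 3 and 0.421 in overexpressing library 3. For ONECUT1, EPCAM and FADS2 the closest lay 731968, 800389 and 173472 bp beyond the window.

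Other genes of the same functions were counted in 5 lists: hepatocyte identity, liver transcription factors, fatty acid desaturation and elongation, lipid and cholesterol synthesis, and epithelial adhesion. With the 4 genes left out, 3 of 114 list genes (2.63%) had a distinct region listed as higher in at least 2 pairs within 1 kb, and none had one listed as lower. Over all protein-coding genes these shares were 2.01% and 0.160%. None of the 23 other hepatocyte identity genes, among them ALB, APOA1, TTR and ASGR1, and none of the 21 other desaturation and elongation genes had a region in any pair. A region in at least 1 pair was listed as higher at 11 of the 114 genes (9.65%), against 6.94% of all protein-coding genes, and a lower one at none, against 2.17%. The median gene length was 29.8 kb in the 5 lists together and 24.1 kb over all protein-coding genes, and a longer gene can hold more regions.

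Besides ASGR2 and FADS2, the list genes that repeated in at least 2 pairs were NR2F2, GATA6 and CD9. In NR2F2, a nuclear receptor gene also known as COUP-TFII, chr15:96334071-96334453 was higher in all 3 pairs. It stood at 0.0689, 0.0762 and 0.0693 in control libraries 1, 2 and 3 and at 0.331, 0.329 and 0.304 in the overexpressing libraries. The mean difference was 0.250 ± 0.0139 (SD, n = 3 pairs). The region is named because all 3 pairs called it as higher, so the separation of the groups is no support. Over all protein-coding genes, 184 (0.917%) had a region higher in all 3 pairs. NR2F2 thus had the agreement across pairs that none of the 10 distinct regions of the 4 loci had. In GATA6, a zinc finger factor of endoderm development, chr18:22170843-22170944 stood at 0.105 and 0.209 in pair 2 and at 0.0556 and 0.214 in pair 3 (mean difference 0.131 ± 0.0385, SD, n = 2 pairs). In CD9, a tetraspanin gene of the epithelial adhesion list, chr12:6223292-6223355 stood at 0.242 and 0.546 in pair 2 and at 0.255 and 0.533 in pair 3 (mean difference 0.291 ± 0.0179, SD, n = 2 pairs).

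Further list genes had a higher region in 1 pair only, and those named here were chosen after their values were seen. Among liver transcription factors, HNF4A, a central regulator of hepatocyte genes, stood at 0.717 in control library 1 and 0.868 in overexpressing library 1. Among lipid and cholesterol genes, INSIG1, which retains the sterol sensor complex in the endoplasmic reticulum, stood at 0.2003 and 0.587 in pair 1, and LPIN1, a phosphatidate phosphatase, at 0.530 and 0.841 in pair 1. Among epithelial genes, PROM1 stood at 0.114 and 0.669 in pair 1 and CLDN3, a tight junction claudin, at 0.248 and 0.398 in pair 3. The keratin genes KRT8 and KRT18 share 1 region between them, at 0.0541 and 0.189 in pair 1, and so do not count as independent. The differences of PROM1 and INSIG1, at 0.556 and 0.387, were larger than any at the 4 loci.

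**Figure D4:**
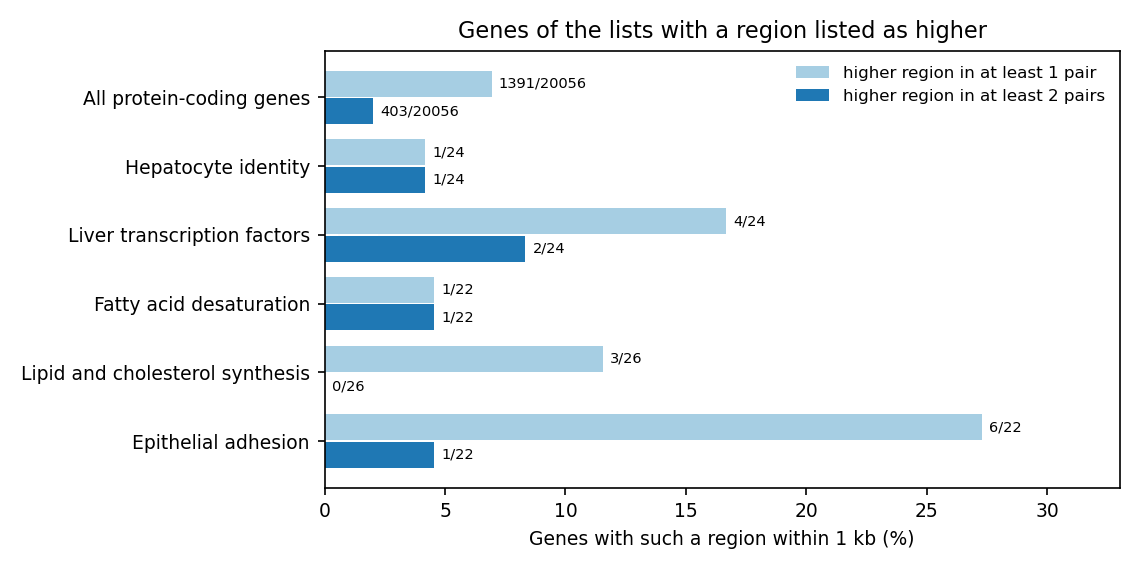
Share of genes (percent, x axis) of each list with a distinct region listed as higher within 1 kb, in at least 1 pair (light bars) or at least 2 pairs (dark bars), with the number of genes beside each bar. The bars include the 4 genes that were chosen for their gains, ASGR2, ONECUT1, EPCAM and FADS2, so the lists are shown beside all protein-coding genes as a description.

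The libraries were of similar depth, with 25764323 to 29924507 mapped reads and mapping rates of 75.96% to 76.88%. The lists give CpG sites but not reads for each region, so the precision of a single level cannot be stated.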

How the data were processed

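RRBS libraries of HepG2 cells, 3 with a control lentivirus and 3 overexpressing DNMT3A, were analysed from 3 region lists and a mapping summary. Per the file headers, the authors gave mean methylation levels as a fraction, the deposited counts of CpG sites and reads, a signed difference, an area score (not used for any result) and percent mapping rates. The deposited difference equalled overexpressing minus control level within 1e-12. Per the submitters' processing notes the genome build is hg38. The sources used here name no aligner, region caller, threshold or conversion rate. Only called regions are listed, so listed differences tend to exceed those of a fresh measurement.

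Regions of different pairs sharing at least 1 bp were merged (Python 3.11.15, pandas 2.3.3); several regions of 1 pair in a merged region were averaged with CpG sites as weights, which no member needed. Percentages of regions below a member refer to the same list and direction. The control-level window of 0.05 was chosen after seeing the data. Gene extents came from RefSeq (GRCh38.p14), with 20056 protein-coding genes and a window of 1000 bp. Merging and gene counting were tested on simulated regions. The members and the gene lists were chosen with earlier results of these data known. Genes named were the 4 loci, their neighbours, and list genes with a distinct region in the same direction in at least 2 pairs; exceptions are stated, and some genes are not reported here. No test was made, since the measured gains chose the loci. Alternatives left out each pair, required a difference of 0.2 or 10 sites, changed weights, overlap (50% of the shorter region) and the gene window.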

Additional observations from a re-analysis of the deposited data

How the results depend on the processing

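No paired analysis was possible because the results come from no test, in which a replicate block could be fitted; the differences given are already those within pairs. Every distinct region of the 4 loci kept its direction under each alternative that gave a value, but this was fixed in advance. A region listed by 1 pair has only 1 value, and those listed by 2 pairs were higher in both. Weights could not act either, because no pair had more than 1 region in a merged member. A 50% overlap changed no difference, since the overlapping calls share at least 59.2% of the shorter one. Leaving out 1 pair gave 7 to 8 higher and 0 to 2 lower regions, 2 to 3 higher at ASGR2, 1 to 2 at EPCAM, 1 to 2 at FADS2 and 2 at ONECUT1, whose losses were 0 to 2. Requiring a difference of at least 0.2 left 4 higher and 0 lower regions, with 2 higher at ASGR2, 0 at EPCAM, 0 at FADS2 and 0 lower at ONECUT1. Requiring at least 10 sites left 1 higher region at ONECUT1 and 1 at EPCAM. The list counts that follow include the 4 genes chosen for their gains. With them, 5 of 118 list genes (4.24%) had a higher region in at least 2 pairs, against 2.01% of all protein-coding genes. Without 1 pair these 5 became 2 to 3: hepatocyte identity 0 to 1, liver transcription factors 1 to 2, desaturation 0 to 1 and epithelial adhesion 0 to 1. The hepatocyte identity and desaturation counts come from ASGR2 and FADS2 alone. Listed in at least 1 pair, the count was 15 higher genes of 118 (12.7%, against 6.94% of all protein-coding genes), the 4 chosen genes among them. The 1 lower gene was ONECUT1, itself chosen (0.847%, against 2.17%). By list there were 4 higher and 1 lower for liver transcription factors, 3 higher for lipid synthesis and 6 for epithelial adhesion. Listed in all 3 pairs it was 1 gene, NR2F2 (0.847%, against 0.917% of all protein-coding genes), with 1 for liver transcription factors and 0 for hepatocyte identity, desaturation and epithelial adhesion. Counting any regions of a gene in at least 2 pairs, an alternative chosen after seeing the data, gave 7 list genes (5.93%, against 2.42% of all protein-coding genes). Of these, 2 were for epithelial adhesion, CD9 and the chosen gene EPCAM. Read depth per region was not analysed here.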
